A study of Mus musculus with 8 samples.

Results

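Mouse embryonic stem (ES) cells titled QT7L1 were compared with wild-type (WT) cells to find which transcripts still differed from WT. In QT7L1 cells TCF7L1 is by title the only TCF/LEF factor put back. The comparison was made of the 4 libraries titled QT7L1 1, QT7L1 2, WT 1 and WT 2, of 8 in the series, with groups taken from the titles. All cells were of the E14TG2a line, of strain 129/Ola, grown with LIF and 15% serum for 48 h. From each group 2 poly(A) RNA libraries were sequenced. The other 4 libraries came from QKO cells, which have no full-length TCF/LEF factor, and from QT7 cells, which by title carry TCF7 in place of TCF7L1. They entered the fit and are given beside the comparison.

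WT cells carry the tag WT and all 4 factors. The QKO tag gives TCF7(-/-) and TCF7L1(-/-) together with TCF7L2(-/-) and LEF1(-/-). The QT7L1 libraries share the TCF7L2(-/-) and LEF1(-/-) alleles of QKO, but their tag reads TCF7(+/-) and TCF7L1(-/-), and the QT7 tag reads TCF7L1(+/-) and TCF7(-/-). The genotype tags thus name, for each of these lines, the other factor than the titles do. The titles are followed throughout, and if the tags were right the QT7L1 libraries would hold TCF7 as the remaining factor. The QT7L1 libraries are labelled clone A and clone B, so each is a clonal line, and no clone is given for WT. Clone differences and the effect of the genotype cannot be told apart with 2 clones. The p-values measure only the spread between libraries of the same group, pooled over all 4 groups, QKO and QT7 included.

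TCF7, TCF7L1, TCF7L2 and LEF1 bind the same short DNA motif through an HMG box and are the nuclear end of the Wnt pathway. Without Wnt they recruit Groucho/TLE corepressors, and when Wnt stabilises beta-catenin it binds them and turns their targets on. In mouse ES cells TCF7L1 is known mainly as a repressor that limits pluripotency genes such as Nanog and Tfcp2l1, and TCF7 mainly as an activator.

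In units of 1e+06 counts the libraries held 31.57 to 43.36, and replicates of a group correlated at r = 0.9815 to 0.9912 in log2 CPM (CPM are counts per 1e+06 counts of a library, with TMM scaling). The 8 ES cell markers were detected in both groups and summed to 5220 and 5370 CPM in WT and 6020 and 6050 CPM in QT7L1. The WT libraries stood apart from each other in lineage genes. WT 1 was higher in the streak gene T (9.7 CPM against 0.68 in WT 2), in Wnt3 (5.07 against 1.54) and in the epiblast gene Fgf5 (3.6 against 0.385). WT 2 was higher in the endoderm genes Gata4 (26.4 CPM against 9.73 in WT 1), Gata6 (8.64 against 2.75) and Col4a1 (270 against 96). The collagen gene Col1a1, a fibroblast (feeder) marker, was at 38.6 and 18.2 CPM in WT against 3.03 and 6.85 in QT7L1, while the fibroblast gene Lum had no count in any library.

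Transcripts of the targeted genes were countable in both QT7L1 libraries, and those of Tcf7, Tcf7l1 and Lef1 were lower than in WT. Tcf7 (chr11:52252371-52283014, GRCm38) had 59.6 and 61.9 CPM in WT, 10.1 and 12.7 in QT7L1, 7.97 and 19.7 in QKO and 16.6 and 20.9 in QT7. Tcf7l1 (chr6:72626378-72789254) had 73.6 and 68.8 CPM in WT, 36.9 and 27.5 in QT7L1, 38.3 and 39.1 in QKO and 27.4 and 22.4 in QT7. In both genes the 6 libraries other than WT lay below both WT libraries. The log2 difference of QT7L1 from WT was -2.42 ± 0.37 (SE, as after ± throughout) in Tcf7 (adjusted p = 0.0406, edgeR quasi-likelihood test with Benjamini-Hochberg adjustment) and -1.14 ± 0.15 in Tcf7l1 (adjusted p = 0.0161). Tcf7l1, the gene put back by title, did not pass the test between QT7L1 and QKO (-0.26 ± 0.15, adjusted p = 0.217). Counts over a whole gene do not show which part of it is transcribed, so they neither measure full-length transcript nor settle whether the title or the tag is right.

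Lef1 (chr3:131110471-131224356) fell further: it had 6.57 and 2.4 CPM in WT, 0.212 and 0.213 in QT7L1, 0.9 and 0.804 in QKO and 1.33 and 0.92 in QT7. It was lower in QT7L1 than in WT (-4.37 ± 0.55, adjusted p = 0.0149), and lower also than in QKO (-1.98 ± 0.58, adjusted p = 0.0286). Few reads underlie these values, 7 and 7 in QT7L1 and 29 and 29 in QKO. The difference from WT was -3.48 without WT 1 and -4.93 without WT 2. Tcf7l2 (chr19:55741820-55933654) was at 8.14 and 6.53 CPM in WT against 5.51 and 4.72 in QT7L1, with no overlap, but its difference did not pass the test (-0.52 ± 0.21, adjusted p = 0.273).

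Across the genome few genes were called between QT7L1 and WT by edgeR with all 8 libraries. DESeq2 called 568 at the same threshold, and 2536 (15.4%) had an unadjusted p under 0.05 by edgeR. A gene that was not called need not have equal levels. Of 16515 genes tested, 123 (0.745%) were called at an adjusted p under 0.05, 49 higher (0.297%) and 74 lower (0.448%) in QT7L1. At least 2-fold, 19 of the higher genes (0.115% of those tested) and 51 of the lower genes (0.309%) were called. The median log2 difference of the higher genes was 0.875 in size, and that of the lower genes 1.39. Over all genes tested the median was 0.0, with quartiles at -0.21 and 0.19, and 93.4% of genes differed less than 2-fold. The same fit called 4912 genes (29.7%) in QT7L1 against QKO, 4366 (26.4%) in QKO against WT and 763 (4.62%) in QT7 against WT. These comparisons share libraries with QT7L1 against WT.

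**Figure D1:**
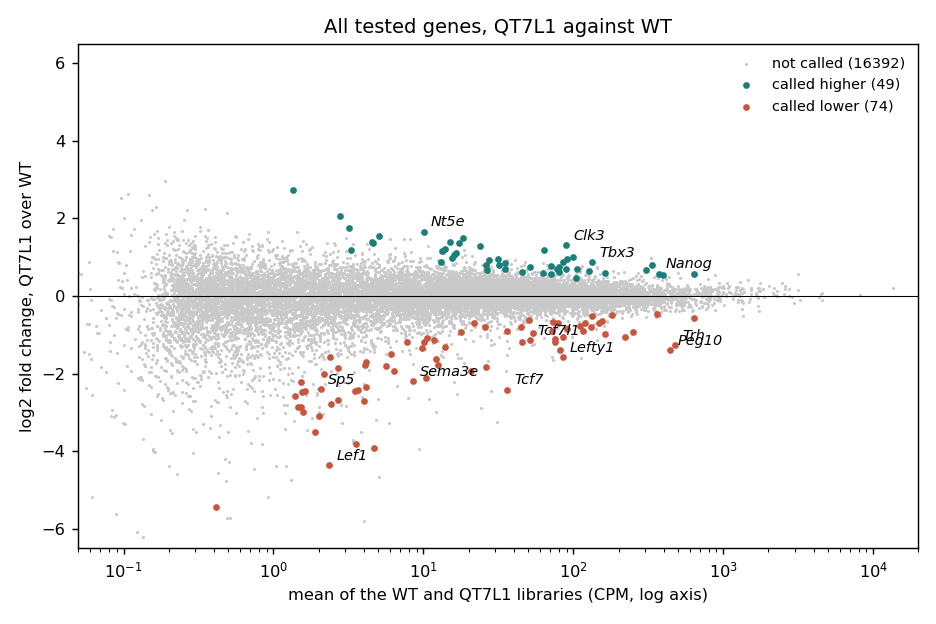
Log2 difference of QT7L1 over WT (vertical axis) against the mean CPM of the WT and QT7L1 libraries (horizontal log axis) for the 16515 tested genes. The 49 genes called higher and 74 called lower are coloured, and most genes lie near 0.

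The number of calls rested on single libraries. Without QT7L1 2 no gene was called by edgeR (1766 had an unadjusted p under 0.05), against 2536 (15.4%) with all libraries. Without QT7L1 1 the genes called were Trh and Klhl13, and without WT 1 they were 7, of which Clk3, Lefty1, Chd7, Spcs3 and Fat1 are among the 123. Klhl13, Chd7, Spcs3 and Fat1 are named here because of these calls, after their values were seen. Without WT 2, 108 genes were called, 62 of them among the 123, and without QKO 1 and QKO 2 there were 76 and 87, of which 70 and 78 are among the 123. Without QT7 1 and QT7 2 the calls rose to 517 and 499, each with 122 of the 123. A left-out QT7L1 or WT library leaves a single library, which is then assumed to vary as the other groups do. No called gene changed direction under any of the 14 alternatives that gave it a value. In all 49 higher and 74 lower genes the WT and QT7L1 libraries did not overlap, so a change of direction was hardly possible. All 123 were called with no filter on low counts, a fit in which the spread was not estimated per gene. Counts of alternatives given below for single genes include that fit. Every call was lost without QT7L1 2, every call but that of Trh was lost without QT7L1 1, and every call but those 5 was lost without WT 1.

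**Figure D2:**
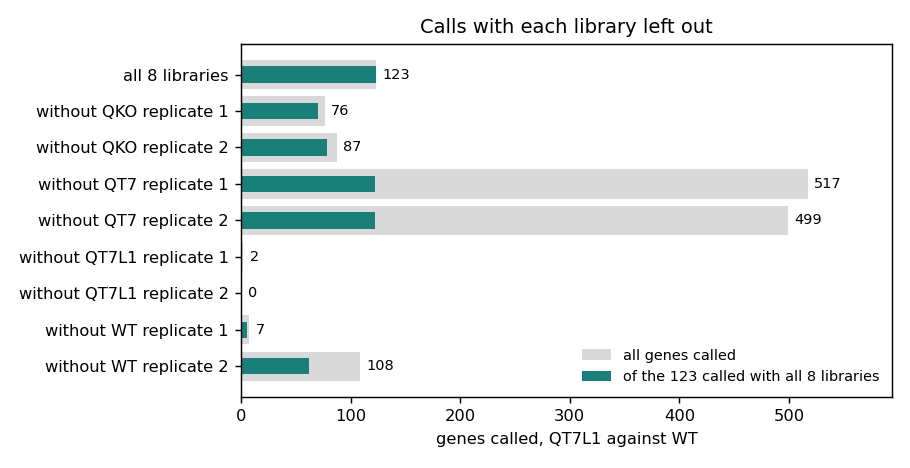
Number of genes called in QT7L1 against WT with all 8 libraries and with each library left out in turn (grey bars), and how many of these are among the 123 called with all libraries (green bars). The counts run from 0 without QT7L1 replicate 2 to 517 without QT7 replicate 1.

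Of the Wnt pathway genes outside the TCF/LEF family few passed the test, though in the ligand, receptor, transducer and feedback lists 7, 4, 4 and 7 had an unadjusted p under 0.05. Of 12 Wnt ligand genes tested (of 19), none passed the test (7 at an unadjusted p under 0.05, 1 by DESeq2), and the median log2 difference was -0.32. Without overlap 3 ligand genes were higher and 6 lower than WT, against 25.4% of all genes tested in each direction. Wnt3, a streak ligand, had the lowest value of the ligands (-2.5 ± 0.55, adjusted p = 0.0826), and its WT libraries differed as given above. Wnt6 was at 4.04 and 5.37 CPM in WT against 6.09 and 9.11 in QT7L1 (0.69 ± 0.25, adjusted p = 0.237). Of 18 receptor genes 1 rose and 17 did not pass, with a median of -0.05. That gene was Ror2, a receptor tyrosine kinase for Wnt5a-type ligands, at 16.9 and 21.1 CPM in WT, 34.8 and 31.3 in QT7L1, 29.8 and 30.2 in QKO and 34.1 and 37.4 in QT7. Both WT libraries lay below the other 6, and QT7L1 was 0.80 ± 0.14 above WT (adjusted p = 0.0348). Among genes chosen after their values were seen, Porcn, the acyltransferase that Wnt ligands need for secretion, was at 21.7 and 24.4 CPM in WT against 38.2 and 42.8 in QT7L1 (0.81 ± 0.13, adjusted p = 0.0282).

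Of 20 signal transducer genes 1 fell and 19 did not pass, and the median was 0.02. Tle4, a Groucho corepressor that binds TCF factors, was at 154 and 126 CPM in WT against 84.5 and 80.5 in QT7L1 (-0.76 ± 0.12, adjusted p = 0.0221). Its QKO libraries, at 121 and 123 CPM, lay near WT, and its QT7 libraries, at 70.8 and 79.9 CPM, near QT7L1. Beta-catenin itself (Ctnnb1) was at 889 and 929 CPM in WT against 905 and 952 in QT7L1, with a log2 difference of 0.03 ± 0.09.

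Feedback genes and secreted inhibitors of the pathway held 1 gene that fell among 20 tested (of 24), and 19 that did not pass, with a median of -0.17. Axin2 (chr11:108920349-108950783), a widely used readout of Wnt signalling, had 21.9 and 20.7 CPM in WT, 31.9 and 32.0 in QT7L1, 45.6 and 60.3 in QKO and 19.1 and 33.9 in QT7. Both QT7L1 libraries lay above WT and below QKO. The difference from WT did not pass the test (0.58 ± 0.24, adjusted p = 0.296), and Axin2 was lower in QT7L1 than in QKO (-0.73 ± 0.24, adjusted p = 0.0482). It passed against WT under 3 of the alternatives. Adjusted p was 0.0316 in an edgeR fit of the WT and QT7L1 libraries alone and 0.00664 with no filter on low counts. In the latter fit the spread was not estimated per gene. The other alternative left out QT7 1.

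The feedback gene that fell was Sp5 (chr2:70474923-70477729), a direct Wnt target that encodes a repressor of other Wnt targets. It had 4.6 and 2.4 CPM in WT, 0.636 and 0.67 in QT7L1, 2.17 and 3.49 in QKO and 1.56 and 1.13 in QT7. The QT7L1 libraries were the lowest of the 8, below WT (-2.41 ± 0.41, adjusted p = 0.0323) and below QKO (-2.11 ± 0.41, adjusted p = 0.00509), while QKO did not pass the test against WT (-0.3 ± 0.37, adjusted p = 0.59). Sp5 stayed called under 11 of the 14 alternatives, with adjusted p between 7.56e-09 and 0.276.

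TCF/LEF factors bind CTTTGAT or CTTTGAA, which was searched on both strands in the RefSeq promoter windows (GRCm38.p6) of 250 bases before to 50 bases after each start site. Of 53 genes called lower with an entry, 7 held it (13.2%), and of 38 called higher 3 did (7.89%), against 805 of 11556 tested genes (6.97%) and 8.65% of all windows. The match is a description and does not show binding. The 250 bases before the start are shown for 3 genes that fell and had a match there, because the pathway's own DNA motif can be seen in them. They are Sp5, the guidance ligand Sema3e and the Polycomb subunit Phc1. They run 5′ to 3′ on the gene's strand, with the match in capitals: Sp5 at chr2:70474673-70474922 (+), with the match beginning 104 bases before the start site, Sema3e at chr5:14025026-14025275 (+), 119 bases before it, and Phc1 at chr6:122340228-122340477 (-), 84 bases before it.
Sp5: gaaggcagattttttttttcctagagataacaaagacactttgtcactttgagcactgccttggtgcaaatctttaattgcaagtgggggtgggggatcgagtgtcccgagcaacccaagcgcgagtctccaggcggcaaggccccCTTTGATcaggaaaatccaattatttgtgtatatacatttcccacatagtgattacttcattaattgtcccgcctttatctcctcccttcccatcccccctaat
Sema3e: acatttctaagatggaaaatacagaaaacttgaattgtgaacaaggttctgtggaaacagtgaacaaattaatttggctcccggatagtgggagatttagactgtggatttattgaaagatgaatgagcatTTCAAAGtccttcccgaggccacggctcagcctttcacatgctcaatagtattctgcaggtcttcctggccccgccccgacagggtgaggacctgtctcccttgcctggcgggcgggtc
Phc1: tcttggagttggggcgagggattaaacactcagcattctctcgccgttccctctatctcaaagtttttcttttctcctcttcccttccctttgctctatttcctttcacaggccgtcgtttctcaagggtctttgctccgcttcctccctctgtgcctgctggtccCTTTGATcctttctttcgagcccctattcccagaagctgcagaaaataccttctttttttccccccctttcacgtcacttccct
Sp5 and Phc1 hold CTTTGAT in the gene's direction and Sema3e holds TTCAAAG, which is CTTTGAA on the other strand. Sema3e was at 17.7 and 10.3 CPM in WT and between 2.3 and 3.45 in the other 6 libraries (QT7L1 3.45 and 2.65). Phc1 was at 722 and 795 CPM in WT against 488 and 545 in QT7L1. Both were lower in QT7L1 than in WT, Sema3e by a log2 difference of -2.19 ± 0.29 (adjusted p = 0.016) and Phc1 by -0.55 ± 0.10 (adjusted p = 0.0392). The promoter windows of Tcf7, Tcf7l1, Lef1 and Axin2 in the table had no match.

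Among naive pluripotency genes Nanog, Tbx3 and Tfcp2l1 rose in QT7L1. Of 18 genes 3 rose and 15 did not pass, with a median log2 difference of 0.19 against 0.0 over all genes. In 9 the QT7L1 libraries lay above both WT libraries and in 3 below, against 25.4% of all genes tested in each direction. Without WT 2 none of the 3 called genes was called. In bulk RNA, fewer cells of a type and less RNA per cell cannot be told apart, here and for the lineage genes that follow. Nanog, a core pluripotency factor, had 308 and 288 CPM in WT, 441 and 445 in QT7L1, 624 and 566 in QKO and 583 and 504 in QT7. The QT7L1 libraries lay between WT and the other lines, above WT (0.57 ± 0.10, adjusted p = 0.0347) and below QKO (-0.43 ± 0.10, adjusted p = 0.0114). Tbx3, a T-box factor of the naive state, had 92.6 and 97.1 CPM in WT, 170 and 177 in QT7L1, 222 and 169 in QKO and 227 and 187 in QT7. Tfcp2l1, a target of LIF/STAT3 and of TCF7L1, had 502 and 521 CPM in WT, 716 and 794 in QT7L1, 729 and 640 in QKO and 821 and 817 in QT7. For both genes all 6 libraries other than WT lay above WT, by 0.87 ± 0.14 (adjusted p = 0.0266) for Tbx3 and 0.56 ± 0.10 (adjusted p = 0.0328) for Tfcp2l1 in QT7L1, and neither passed the test against QKO.

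Esrrb and Pou5f1 did not pass the test. Esrrb was at 779 and 806 CPM in WT against 775 and 818 in QT7L1, and Pou5f1, which encodes Oct4, at 1470 and 1410 against 1660 and 1560. Dppa3, a maternal-effect gene, had the lowest log2 difference of the list, at 15.5 and 11.7 CPM in WT and 3.48 and 0.914 in QT7L1 (-2.62 ± 0.62, adjusted p = 0.115). None of 14 general pluripotency genes passed the test (8 had an unadjusted p under 0.05), and their median was -0.19. DESeq2 called 2 of them. Dppa5a was at 1120 and 1380 CPM in WT against 1680 and 1640 in QT7L1 (0.41 ± 0.15, adjusted p = 0.224).

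**Figure D3:**
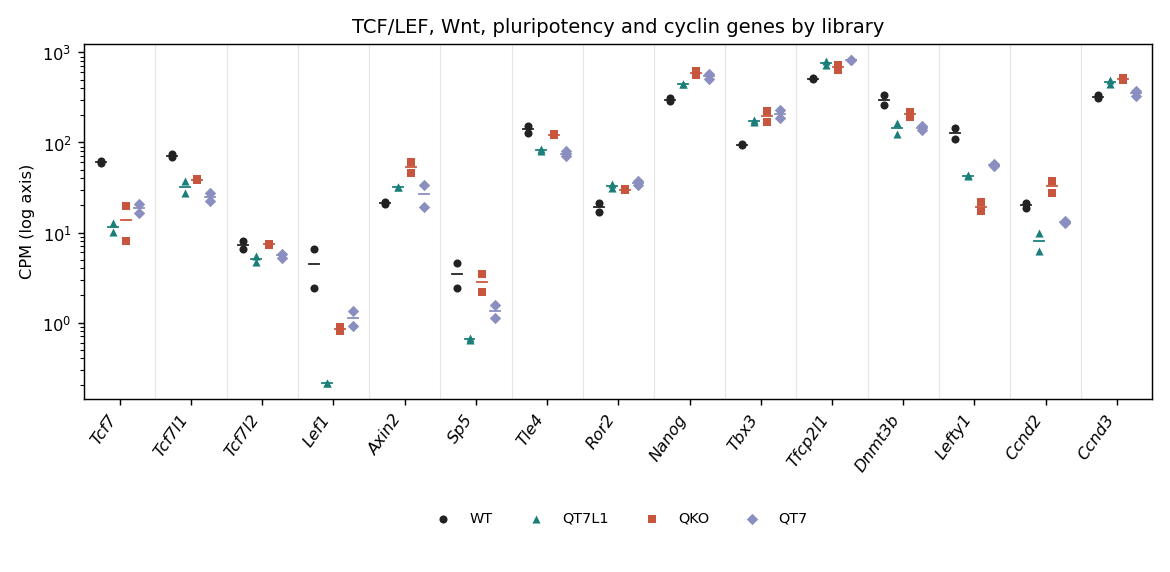
CPM in each of the 8 libraries (log axis) for TCF/LEF, Wnt, pluripotency and cyclin genes, with a bar at each group's mean. In Tcf7, Tcf7l1 and Lef1 both WT libraries lie above all others, in Nanog, Tbx3 and Ror2 below all others, and in Sp5 and Ccnd2 the QT7L1 libraries are the lowest.

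Genes of the formative and primed epiblast leaned lower. Of 18, 2 fell and 16 did not pass, 16 had a negative log2 difference, and the median was -0.76. In 13 of them the QT7L1 libraries lay below both WT libraries, against 25.4% of all genes tested. The 2 that fell were Lef1, given above, and Dnmt3b, a de novo DNA methyltransferase, at 335 and 261 CPM in WT, 163 and 125 in QT7L1, 191 and 220 in QKO and 152 and 139 in QT7 (-1.05 ± 0.16, adjusted p = 0.0251). Dnmt3b was lower in QT7L1 also than in QKO (-0.51 ± 0.15, adjusted p = 0.0329). The N-cadherin gene Cdh2 was at 9.3 and 4.33 CPM in WT against 1.54 and 2.07 in QT7L1, and did not pass (-1.91 ± 0.37, adjusted p = 0.0505). WT 1 was the higher WT library in Lef1, Dnmt3b and Cdh2, as it was in T and Fgf5, and the part of the WT difference in these results was not tested. Without WT 1 the median of the list was -0.53, and without WT 2 it was -1.04.

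Among 14 streak and mesendoderm genes tested (of 17) 2 fell and 12 did not pass, with a median of -0.95. They were Sp5 and Lefty1, a secreted inhibitor of Nodal. Lefty1 had 108 and 145 CPM in WT, 43.0 and 42.2 in QT7L1, 21.6 and 17.2 in QKO and 54.8 and 58.0 in QT7. The QT7L1 libraries lay between QKO and WT, and differed from both, by -1.57 ± 0.15 from WT (adjusted p = 0.005) and 1.13 ± 0.16 from QKO (adjusted p = 0.00125). Lefty1 stayed called under 12 of the 14 alternatives, with adjusted p between 9.14e-28 and 0.168. Nodal itself was at 84.5 and 97.4 CPM in WT against 104 and 109 in QT7L1 (0.23 ± 0.10, adjusted p = 0.341), and Lefty2 at 132 and 153 against 123 and 84.1 (-0.46 ± 0.29, adjusted p = 0.502). The median of the streak list ranged from -1.32 to -0.23 over the alternatives, the latter without WT 1, the library in which T was high.

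Of 19 primitive and visceral endoderm genes tested (of 21), 1 rose and 18 did not pass, and the median was -0.65. Sparc, a secreted glycoprotein of the matrix, had 217 and 267 CPM in WT, 430 and 419 in QT7L1, 627 and 750 in QKO and 671 and 528 in QT7 (0.81 ± 0.14, adjusted p = 0.0392). It thus rose against the direction of the list's median. The list's median turned from negative to 0.15 in 1 of the alternatives, without WT 2, the library in which Gata4, Gata6 and Col4a1 were high. None of 12 mesoderm, 7 neuroectoderm and 15 trophoblast genes tested passed the test, with medians of -0.31, -0.47 and -0.28, and 2, 2 and 4 of them had an unadjusted p under 0.05. Nes, the neural intermediate filament nestin, was at 54.6 and 27.3 CPM in WT against 15.5 and 10.1 in QT7L1 (-1.67 ± 0.42, adjusted p = 0.141). The trophoblast factor Tead4 was at 37.7 and 46.2 CPM in WT against 42.0 and 38.2 in QT7L1. DESeq2 called 0, 1 and 3 genes of these lists.

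Markers of other cell types were summed beside these lists. Primitive endoderm markers summed to 35.8 and 85.9 CPM in WT and 38.5 and 37.2 in QT7L1, trophoblast markers to 5.51 and 3.6 against 3.79 and 2.65, and neuroectoderm markers to 161 and 134 against 101 and 89.9. Fibroblast markers summed to 985 and 1160 CPM in WT and 1350 and 1050 in QT7L1, and none of the 7 tested of 10 was called. Fibronectin (Fn1) made up most of that sum, with 894 and 1100 CPM in WT and 1310 and 995 in QT7L1. Of the others, Col1a1, Col1a2 (25.6 and 11.8 CPM against 0.242 and 5.63) and Col3a1 (1.63 and 0.635 against 0.0909 and 0.244) were lower in both QT7L1 libraries. So was Fbn1 (7.07 and 6.46 CPM against 3.0 and 5.33). Postn (0.125 and 0.136 CPM) and Dcn (0.0939 and 0.0453) were near the floor in WT and had no count in QT7L1. Thy1 (7.98 and 11.5 against 18.0 and 14.4) and Pdgfrb (9.95 and 14.2 against 15.2 and 20.2) were higher. In the longer list of 14 fibroblast genes tested none was called either (1 at an unadjusted p under 0.05, 1 by DESeq2), with a median of -0.68. The part of other cells in the differences was not tested.

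In the FGF/ERK pathway genes of phosphatases, a receptor and a ligand fell. Dusp4, a phosphatase that inactivates ERK, had 34.3 and 31.9 CPM in WT, 10.4 and 7.0 in QT7L1, 11.4 and 15.3 in QKO and 12.8 and 6.97 in QT7 (-1.93 ± 0.30, adjusted p = 0.0302). It was the gene that fell among 14 of the feedback list, whose median was -0.20 and of which 13 did not pass. Spry4 was at 346 and 354 CPM in WT against 300 and 447 in QT7L1. The receptor gene Fgfr2 had 15.2 and 21.5 CPM in WT, 7.06 and 4.93 in QT7L1, 3.48 and 4.16 in QKO and 5.54 and 7.38 in QT7. Both WT libraries lay above the other 6, and QT7L1 was at -1.61 ± 0.26 from WT (adjusted p = 0.0266). Chosen after their values were seen, Dusp5, a further ERK phosphatase, was at 13.9 and 14.9 CPM in WT against 7.78 and 5.82 in QT7L1 (-1.08 ± 0.21, adjusted p = 0.0456), and the ligand gene Fgf18 at 3.13 and 2.36 against 0.666 and 0.335 (-2.44 ± 0.39, adjusted p = 0.0275). Of 13 immediate early genes tested, Klf6, a zinc-finger factor, fell (62.0 and 51.6 CPM in WT, 29.0 and 35.8 in QT7L1, -0.81 ± 0.15, adjusted p = 0.0424) and 12 did not pass.

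Of 15 LIF/STAT3 targets 1 rose and 1 fell, Tfcp2l1 and Sp5 as given above, with a median of 0.01. Socs3, the feedback inhibitor of the pathway, was at 222 and 314 CPM in WT against 312 and 348 in QT7L1, with 1 QT7L1 library inside the WT range. Of 14 BMP and Nodal/Activin genes tested 1 fell, Lefty1, and the median was 0.02. Skil, a Smad corepressor, was at 195 and 211 CPM in WT against 109 and 127 in QT7L1, and did not pass (-0.78 ± 0.15, adjusted p = 0.05).

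D-type cyclins moved in opposite directions. Ccnd2 had 21 and 18.9 CPM in WT, 9.81 and 6.21 in QT7L1, 37.2 and 27.8 in QKO and 13.3 and 12.8 in QT7. QT7L1 was the lowest group in Ccnd2, below WT (-1.32 ± 0.22, adjusted p = 0.0313) and QKO (-2.02 ± 0.22, adjusted p = 0.000802), with QKO above WT (0.70 ± 0.21, adjusted p = 0.0355). Ccnd3 had 308 and 338 CPM in WT, 498 and 449 in QT7L1, 490 and 518 in QKO and 328 and 374 in QT7 (0.55 ± 0.10, adjusted p = 0.0423). Its QT7L1 libraries lay with QKO, and its QT7 libraries overlapped the WT range, while QT7L1 against QT7 did not pass the test (0.43 ± 0.10, adjusted p = 0.19). Ccnd1, the third of them and a classical Wnt target, was at 199 and 152 CPM in WT against 162 and 165 in QT7L1 (-0.10 ± 0.13). The other 17 of the 20 cell cycle genes did not pass either, and the list's median was 0.0.

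**Figure D4:**
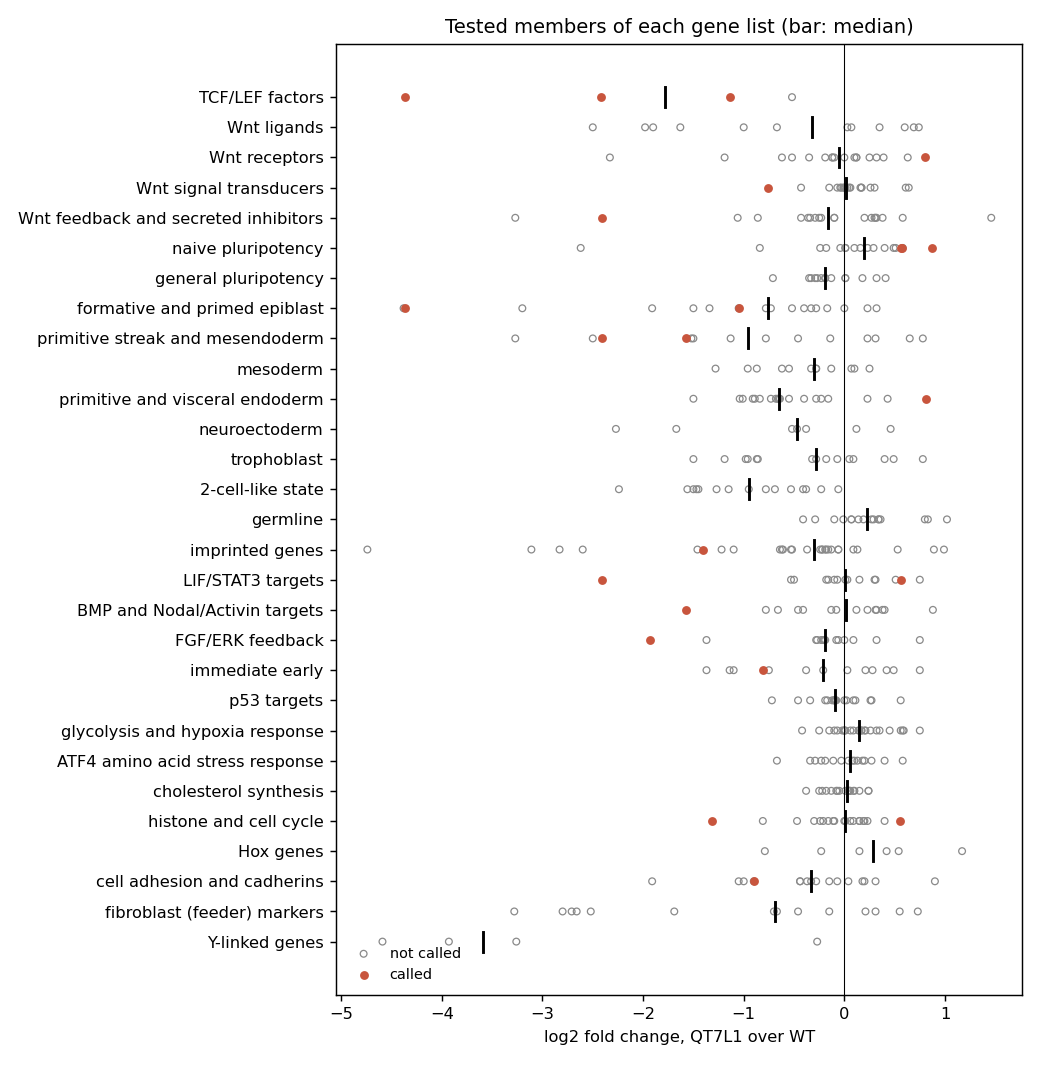
Log2 difference of QT7L1 over WT for each tested member of the 29 gene lists, 1 row a list, with called members filled and a bar at the list's median. In the TCF/LEF row 3 of 4 points are filled and in each other list at most 3 are, and the lists of p53 targets, glycolysis and hypoxia response and cholesterol synthesis sit close to 0.

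Among the called genes with the largest differences and a log2 CPM of at least 2, Nt5e, Lrrn2 and Slc15a1 had the largest rises. Nt5e, a cell-surface enzyme that makes adenosine from AMP, had 5.98 and 3.76 CPM in WT, 11.6 and 18.9 in QT7L1, 48.3 and 37.8 in QKO and 29.3 and 27.1 in QT7. Lrrn2, a leucine-rich repeat membrane protein, had 2.88 and 2.24 CPM in WT, 6.66 and 8.37 in QT7L1, 22.6 and 17.0 in QKO and 20.7 and 13.9 in QT7. Both genes lay between WT and QKO in QT7L1. Nt5e differed from WT by 1.66 ± 0.28 (adjusted p = 0.0368) and from QKO by -1.50 ± 0.26 (adjusted p = 0.00408), and Lrrn2 by 1.56 ± 0.26 (0.0303) and -1.40 ± 0.25 (0.00308). Clk3, a kinase of splicing factors, had 46.4 and 55.7 CPM in WT, 129 and 124 in QT7L1, 73.2 and 89.8 in QKO and 131 and 129 in QT7. It had the smallest adjusted p of the higher genes (1.31 ± 0.13, adjusted p = 0.005), was called under 12 of the 14 alternatives (adjusted p up to 0.124), and lay above QKO as well (0.64 ± 0.12, adjusted p = 0.00482). Tgm2, the tissue transglutaminase, had 30.3 and 46.5 CPM in WT, 96.9 and 79.5 in QT7L1 and 18.1 and 24.3 in QKO. Its QT7L1 libraries were above WT (1.20 ± 0.21, adjusted p = 0.0424) and its QKO libraries below WT (-0.86 ± 0.21, adjusted p = 0.0195).

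Efnb2, Cdh3 and Slc27a2 were among the genes that fell. Efnb2, the membrane ligand ephrin-B2, had 21.2 and 12.8 CPM in WT, 3.6 and 4.17 in QT7L1, 6.64 and 12.2 in QKO and 5.03 and 3.98 in QT7 (-2.12 ± 0.34, adjusted p = 0.0302). Cdh3, which encodes P-cadherin, was the cadherin that fell among 17 adhesion genes, at 46.0 and 47.5 CPM in WT, 28.2 and 21.9 in QT7L1, 17.1 and 18.9 in QKO and 19 and 22.7 in QT7 (-0.90 ± 0.15, adjusted p = 0.0321). The other 16 did not pass, and the median was -0.33. Slc27a2, which activates and takes up long fatty acids, was at 22.8 and 16.0 CPM in WT against 5.3 and 5.94 in QT7L1 (-1.78 ± 0.23, adjusted p = 0.016). Its QT7L1 libraries lay below QKO too (10.5 and 13.9 CPM, -1.12 ± 0.23, adjusted p = 0.00653).

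Of the called genes with the highest CPM, Peg10 and Trh fell furthest. Peg10, a paternally expressed gene of retrotransposon origin, had 653 and 626 CPM in WT, 229 and 257 in QT7L1, 319 and 540 in QKO and 289 and 291 in QT7 (-1.40 ± 0.21, adjusted p = 0.0302). It was the gene called among 28 imprinted genes tested, 27 of which did not pass, and their median was -0.30. Of the 28, 23 had a negative log2 difference, and the lowest was -4.74. An unadjusted p under 0.05 was found in 10, against 15.4% of all genes tested by edgeR. Without overlap 16 were lower and 2 higher than WT, against 25.4% of all genes tested in each direction. Trh, the precursor of thyrotropin-releasing hormone, had 647 and 696 CPM in WT, 331 and 226 in QT7L1, 230 and 194 in QKO and 201 and 193 in QT7. Its difference was -1.27 ± 0.16 (adjusted p = 0.0161), and it was called under 12 of the 14 alternatives, with adjusted p up to 0.161. Tns3, a tensin of focal adhesions, was at 439 and 398 CPM in WT against 305 and 298 in QT7L1 (-0.47 ± 0.09, adjusted p = 0.0424). Tcf7l1, Nanog, Peg10, Trh, Phc1 and Ccnd2 all lie on chromosome 6. Of 811 genes tested on that chromosome 1 was called higher and 5 lower, a share near the 0.745% called over all genes. The median log2 difference of the 487 genes there with at least 4 CPM was -0.127, and the chromosome's genes were 0.13 above their mean over the libraries in WT 2 and 0.026 above it in WT 1. The part of these shifts in the differences of the named genes was not tested.

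Some called genes lay near their QKO level in QT7L1: they differed from WT in QKO and did not pass the test between QT7L1 and QKO. Among the higher ones, Pou2f3, a POU-domain factor, had 8.8 and 10.5 CPM in WT, 21.7 and 28.1 in QT7L1, 29.9 and 39.6 in QKO and 32.3 and 26.4 in QT7 (1.36 ± 0.20 over WT, adjusted p = 0.0165). Xaf1, an interferon-inducible binding partner of the apoptosis inhibitor XIAP, had 13.3 and 14.6 CPM in WT, 32.8 and 35.0 in QT7L1, 31.7 and 30.6 in QKO and 47.1 and 36.1 in QT7 (1.28 ± 0.15, adjusted p = 0.0133). In both genes all 6 libraries other than WT lay above WT. Fam81a (1.38 ± 0.19), the prostaglandin E synthase Ptges (1.21 ± 0.22) and the inositol trisphosphate kinase Itpka (1.16 ± 0.17) had the same order. Their differences between QT7L1 and QKO were 0.36 ± 0.19, 0.29 ± 0.22 and 0.01 ± 0.17.

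Among the lower ones, besides Tcf7, Sema3e and Dusp4, Cd109, a membrane-anchored regulator of TGF-beta signalling, had 11.3 and 8.75 CPM in WT, 1.79 and 3.47 in QT7L1, 3.66 and 2.47 in QKO and 2.76 and 3.93 in QT7 (-1.93 ± 0.35, adjusted p = 0.0392). Trim36, a ubiquitin ligase, was at 8.73 and 8.86 CPM in WT and between 1.74 and 3.29 in the other libraries (QT7L1 2.33 and 2.71; -1.80 ± 0.24, adjusted p = 0.016). A difference between QT7L1 and QKO that missed the threshold does not show that the levels were equal: the differences were -0.22 ± 0.35 for Cd109, 0.40 ± 0.24 for Trim36, 0.32 ± 0.29 for Sema3e and -0.62 ± 0.30 for Dusp4. Of genes chosen after their values were seen, Mycn, a MYC family factor, had 247 and 182 CPM in WT, 115 and 102 in QT7L1 and 122 and 136 in QKO (-0.98 ± 0.14, adjusted p = 0.0165). Ptch1, the Hedgehog receptor, was chosen likewise and lay between QKO and WT, at 140 and 161 CPM in WT, 90.1 and 71.3 in QT7L1 and 43.3 and 39.3 in QKO (-0.90 ± 0.13 from WT, adjusted p = 0.0165).

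Other called genes differed in QT7L1 from both WT and QKO in the same direction, while QKO did not pass the test against WT. Slc15a1, a peptide transporter, had 6.51 and 12.4 CPM in WT, 25.7 and 28.6 in QT7L1, 13.9 and 13.2 in QKO and 19.5 and 24.7 in QT7. It was 1.51 ± 0.26 above WT (adjusted p = 0.0392) and 1.00 ± 0.26 above QKO (adjusted p = 0.0188). Klk13, a secreted serine protease, had 2.25 and 2.74 CPM in WT, 6.39 and 6.76 in QT7L1, 2.85 and 2.47 in QKO and 7.04 and 6.03 in QT7. The QT7L1 and QT7 libraries of Klk13 lay together, above WT and QKO, and the log2 difference from WT was 1.39 ± 0.23 (adjusted p = 0.0302). Pde8a, a cAMP phosphodiesterase (1.11 ± 0.20), Fam53b, a regulator of beta-catenin's entry into the nucleus (0.98 ± 0.17), and Slco4a1, an organic anion transporter (0.92 ± 0.17), were called higher in the same way.

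Lower than both WT and QKO were Mcc, Cnn2, Bend3, Efnb2 and Peg10. Mcc, a gene mutated in colorectal cancers, had 16.7 and 11.3 CPM in WT, 6.63 and 4.45 in QT7L1, 22.2 and 21 in QKO and 7.45 and 6.65 in QT7. QT7L1 was at -1.33 ± 0.24 from WT (adjusted p = 0.0392) and -1.96 ± 0.24 from QKO (adjusted p = 0.000968). Cnn2, an actin-binding calponin, had 72.9 and 54.1 CPM in WT, 26.8 and 28.6 in QT7L1, 49.6 and 51.4 in QKO and 23.8 and 23.9 in QT7 (-1.20 ± 0.14, adjusted p = 0.0133). Bend3, a BEN-domain repressor that acts at heterochromatin, had 123 and 85.5 CPM in WT and 44.9 and 46.7 in QT7L1 (-1.19 ± 0.19, adjusted p = 0.0302). Its QKO libraries were at 93.7 and 111 CPM and its QT7 libraries at 56.8 and 43.9. In Cnn2 and Bend3 the WT and QKO libraries lay above all QT7 and QT7L1 libraries.

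**Figure D5:**
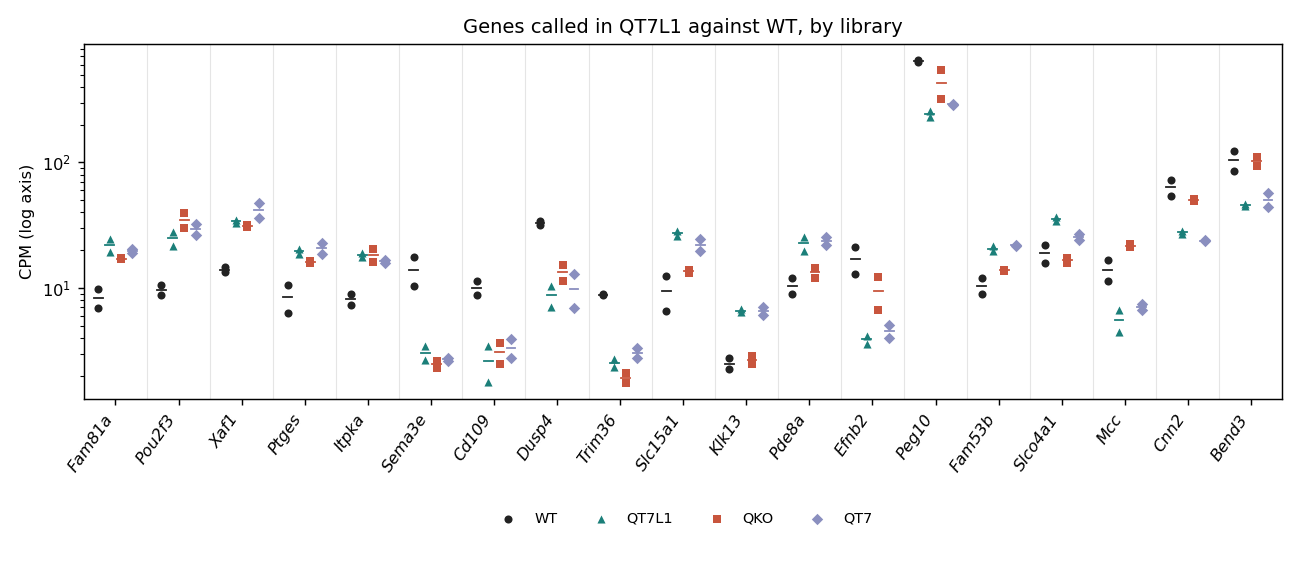
CPM in each of the 8 libraries (log axis), with a bar at each group's mean, for called genes whose QT7L1 level did not pass the test against QKO (Fam81a to Trim36) and for called genes that differed from both WT and QKO in the same direction (Slc15a1 to Bend3). In the first set the QKO libraries lie on the QT7L1 side of WT. In the second the QKO means lie nearer to WT on the log scale, while library QKO 1 of Efnb2 and Peg10 lies nearer to QT7L1.

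Between QT7L1 and QT7 a single gene was called in the same fit (0.00606% of genes, against 1830 or 11.1% at an unadjusted p under 0.05), so none of the 123 genes was called between these lines. A miss of the threshold does not show equal levels. That gene, Gm47283 on chromosome Y, was not called in QT7L1 against WT and is named after its value was seen (1.01 ± 0.11 over QT7, adjusted p = 0.0467).

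Several processes held no called gene in QT7L1 against WT. Of 25 glycolysis and hypoxia response genes none was called by edgeR (3 had an unadjusted p under 0.05, and DESeq2 called 1), and the median was 0.15. Gapdh had 4510 and 4900 CPM in WT, 4310 and 4470 in QT7L1 and 3540 and 3520 in QKO, and Pkm, which encodes pyruvate kinase, at 4220 and 4570, 4320 and 5020, and 2880 and 3180. Bnip3, a mitophagy receptor induced by low oxygen and chosen after its values were seen, had 121 and 141 CPM in WT, 118 and 172 in QT7L1 and 13.9 and 9.67 in QKO. Of 18 p53 targets none passed (4 at an unadjusted p under 0.05, 1 by DESeq2), with a median of -0.09. The p53 targets Ccng1 and Zmat3 were at 242 and 250 and at 207 and 227 CPM in WT, and at 218 and 247 and at 187 and 193 in QT7L1. Of 18 cholesterol synthesis genes none passed by either tool or at an unadjusted p under 0.05, with a median of 0.02, and the log2 differences ran from -0.38 to 0.24. Of 16 amino acid stress genes tested none was called (2 at an unadjusted p under 0.05, 1 by DESeq2), with a median of 0.06.

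None of the 16 germline, 15 2-cell-like and 6 Hox genes tested was called, with medians of 0.23, -0.95 and 0.29 and with 1, 1 and 0 genes at an unadjusted p under 0.05. DESeq2 called 1 germline gene and none in the other lists. Tex19.1, a germline gene of pluripotent cells, had 24.9 and 29.7 CPM in WT, 23.8 and 30.5 in QT7L1 and 64.2 and 61.7 in QKO. Zscan4d, a marker of the 2-cell-like state with near-identical copies that reads may not tell apart, had 0.939 and 3.63 CPM in WT, 1.03 and 0.67 in QT7L1 and 15.5 and 6.07 in QKO. The 2-cell-like median ran from -1.26 without WT 1 to 0.35 without WT 2.

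In the authors' deposited table, 460 genes had an adjusted p under 0.05 between QT7L1 and WT, 174 higher and 286 lower in QT7L1. All of the 123 genes called here were among them in the same direction, which is 100% of the 123 and 26.7% of the 460. Both counts come from the same libraries.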

How the data were processed

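RNA-seq counts of 8 libraries of mouse E14TG2a ES cells, 2 per group, were analysed, made per the labels with a TruSeq stranded mRNA kit from total RNA (250 ng). The deposited counts are raw reads per gene made by the authors with HTSeq. The submitters' processing notes name bcl2fastq 1.8.4, STAR 2.4.0f1, HTSeq, DESeq2 2.1.8.3 and the build mm10 (GRCm38). HTSeq's strand setting is not given in the sources used here, so reads of overlapping or antisense genes may not be told apart. The authors' deposited comparison table gives a mean normalized signal, log2 fold changes, a test score and p-values per gene. Its sign, WT over QT7L1, was turned around here.

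Groups were taken from sample titles. Genes were kept with edgeR's filterByExpr (16515 of 47729), scaled with TMM and tested with edgeR 4.0.16 (R 4.3.3, limma 3.58.1) by a robust quasi-likelihood fit of all 8 libraries with 1 mean per group and 4 residual degrees of freedom. A gene was called at a Benjamini-Hochberg adjusted p under 0.05 over all genes tested. Values after ± are SE of log2 differences. Library totals were 31.57 to 43.36 in units of 1e+06 counts, and replicates differed by more than counting error (chi-square per degree of freedom 17.01 to 52.25). The fit was tested on simulated counts of 16515 genes, 200 of them changed in QT7L1. It recovered 80% of the 2-fold and 98% of the 4-fold changes. It made 20 false calls, a share of all calls above the nominal level.

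Names and coordinates came from GENCODE M21 (47310 of 47729 identifiers), and promoters from a RefSeq table (GRCm38.p6). Named were the TCF/LEF genes and Axin2, the 12 higher and 12 lower called genes with the largest differences at a mean log2 CPM of at least 2, up to 4 called genes per list (or the 2 with the highest CPM where none was called), the 4 highest CPM genes called per direction, and up to 5 genes per direction called alike in QKO against WT or in QT7L1 against QKO. Not every gene this rule selects is reported here. Other genes, among them Wnt3, Ctnnb1, Dppa3, Esrrb, Pou5f1, Cdh2, Nodal, Lefty2, Spry4, Socs3, Skil, Ccnd1, T, Fgf5, Gata6, Col4a1, Col1a1 and Lum, were named after their values were seen. The comparison, the 29 gene lists and the tests were chosen with earlier results of these data known. The alternatives were DESeq2 1.42.0, RLE scaling, a fit of the WT and QT7L1 libraries only, no filter on low counts, a stricter one, a replicate block and leaving out each library.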

Additional observations from a re-analysis of the deposited data

How the results depend on the processing

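The number of genes called depended on the fit. Each of the 123 called genes kept its direction under each alternative that gave it a value. Their WT and QT7L1 libraries did not overlap, so the kept direction says little about the calls. DESeq2 called 568 genes (221 higher and 347 lower, of which 43 and 175 at least 2-fold). A fit of the WT and QT7L1 libraries only called 614 (189 and 425, with 48 and 252 at least 2-fold). With no filter on low counts 1248 were called (470 and 778, with 86 and 479 at least 2-fold), and in that fit of 25911 genes the spread was not estimated per gene. RLE scaling called 133 genes and a stricter filter 139. Between 122 and 123 of the 123 genes were still called under each of these fits. Leaving out each library in turn, the count of calls ran from 0 to 517, of higher genes from 0 to 186, of lower genes from 0 to 331, and of those at least 2-fold from 0 to 48 higher and 0 to 199 lower. The cause was not tested. The replicate numbers are not stated to pair the libraries. Same-numbered WT and QT7L1 libraries deviated from their group means with a correlation of 0.04, and the other pairs of groups with -0.21 to 0.16. A low correlation over all genes cannot exclude shared handling that touches some genes. With the replicate block 169 genes were called, 77 of them at least 2-fold lower, and 122 of the 123 were among them. With 2 libraries per group, the parts of spread and of depth in the number of calls were not tested. Genes under the filter on low counts were left out of the main fit.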

Other observations

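Genes of the Y chromosome varied between libraries of 1 line. Ddx3y had 49.2 and 63.2 CPM in WT, 7.54 and 4.23 in QT7L1, 11.4 and 40.4 in QKO and 50.9 and 14.2 in QT7. Uty was at 18.3 and 17.0 CPM in WT against 1.91 and 0.396 in QT7L1, and Eif2s3y at 30.2 and 33.8 against 18.3 and 34.9. None of the 4 Y-linked genes was called by edgeR in QT7L1 against WT (1 had an unadjusted p under 0.05, and DESeq2 called 1), with a median log2 difference of -3.59.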
